A study of Mus musculus with 2 samples.

Results

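The Krüppel-like factors (KLFs) described here are 9 zinc finger transcription factor genes, Klf2, Klf3, Klf4, Klf5, Klf6, Klf9, Klf10, Klf13 and Klf15, read in injured kidneys of wild-type and estrogen sulfotransferase (EST) knockout mice. The list of names was set with earlier results of these data known. Every probe set whose single symbol in the platform annotation was one of these names was taken. The members are 9 of 18194 genes named on the array. The 9 genes had 30 probe sets. A probe set is a group of short probes against one transcript region, and a gene can have several. EST is the enzyme encoded by Sult1e1, which adds sulfate to estrogens and so keeps them from their receptor.

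The WT AKI group was 1 pool of kidney tissue (180 mg) of 3 wild-type C57BL/6 males, and the EST KO AKI group was 1 pool (124 mg) of 6 EST KO males, given the same strain label. AKI stands for acute kidney injury. Mice of both groups had both kidneys made ischemic, without cooling, for 30 min, and tissue was taken 24 h later. The labels give 8 weeks as the age of the wild-type mice and no separate age for the EST KO mice. The labels do not say how the EST allele was made or whether the wild-type mice were littermates. Both groups were injured, no uninjured sample was analysed here, and each pool was read on 1 array, which leaves the spread between mice unmeasured, and no test between genotypes was possible. Per the design text, the study asked how EST loss alters expression after such an injury in males.

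KLFs bind GC-rich and CACCC sequences in DNA through a conserved set of zinc fingers at the carboxyl end, and differ in the rest of the protein, which recruits activators or repressors. Klf9 and Klf15 are direct targets of the glucocorticoid receptor and follow daily rhythms in many tissues. Klf2 and Klf4 are induced by blood flow in endothelium, Klf6 and Klf10 are early response genes of injury and of TGF-beta signalling, and Klf5 is an epithelial factor of proliferating cells. In the kidney, KLF6 and KLF15 have been studied in the proximal tubule and the podocyte, and KLF5 in the collecting duct.

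Values are the deposited intensities on a linear scale, and a level of one probe set cannot be set against that of another. An array's background was taken as percentile 95 of 129 probe sets of taste, vomeronasal and olfactory receptors and keratin-associated proteins, families that kidney hardly expresses, 676.1 for WT and 638.3 for EST KO. A gene counts as measured if its brightest probe set, by the mean of both arrays, exceeded background on 1 array or both, and 7480 genes did. Dimmer values were raised to background before taking log2, which turns the fold into a lower bound, written "at least". Sult1e1 itself read 472.7 (WT) and 17.2 (EST KO), under background in both, so it does not check the genotype label. One protocol field calls the EST KO tissue liver and all other fields call it kidney. All 12 proximal tubule markers read were measured, and Alb, the albumin gene of hepatocytes, lay under background in both pools. Of 11 hepatocyte markers read, 4 were measured, 3 higher and 1 lower with EST KO. The higher ones include Ttr (1716.4 for WT and 11956.7 for EST KO) and Cyp2e1 (11569.4 and 20654.9). The tissue label was not tested further.

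Klf9 was the only member at least 2-fold apart between the pools, at 2.35-fold higher with EST KO, and Klf6 followed at 1.79-fold higher. For Klf10 the bound was 1.28-fold higher and Klf5 was 1.25-fold higher, while Klf13 (1.10-fold higher) and Klf3 (1.02-fold lower) were close to level. Klf2 was lower by at least 1.34-fold, and Klf4, at its brightest probe set, by at least 1.22-fold. Klf15 lay under background in both pools and has no ratio.

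Of the 9 members, 8 were measured, and 5 of these, Klf3, Klf5, Klf6, Klf9 and Klf13, lay above background in both pools. Klf2, Klf4 and Klf10 passed through 1 pool only, so a difference in those is partly set by the filter. At least 2-fold higher was 1 of 8 measured members, against 3.02% of all measured genes, and at least 2-fold lower was 0 of 8, against 1.4%. At any size, 5 members were higher, against 43.6% of measured genes, and 3 were lower, against 54.6%, each counted by its brightest probe set. The members were chosen with earlier results of these data known. Comparisons with all genes or all probe sets therefore describe them and are not tests. The median log2 ratio (EST KO over WT) of the 8 was 0.23, beside −0.06 over all measured genes. It was 0.05 over the 6 members other than Klf6 and Klf9, left out after their values were seen. The 2 other measured KLF genes, Klf7 and Klf11, are not members and were both lower (log2 ratios −0.36 and −0.02). The counts and median therefore describe the members and not the family.

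**Figure D1:**
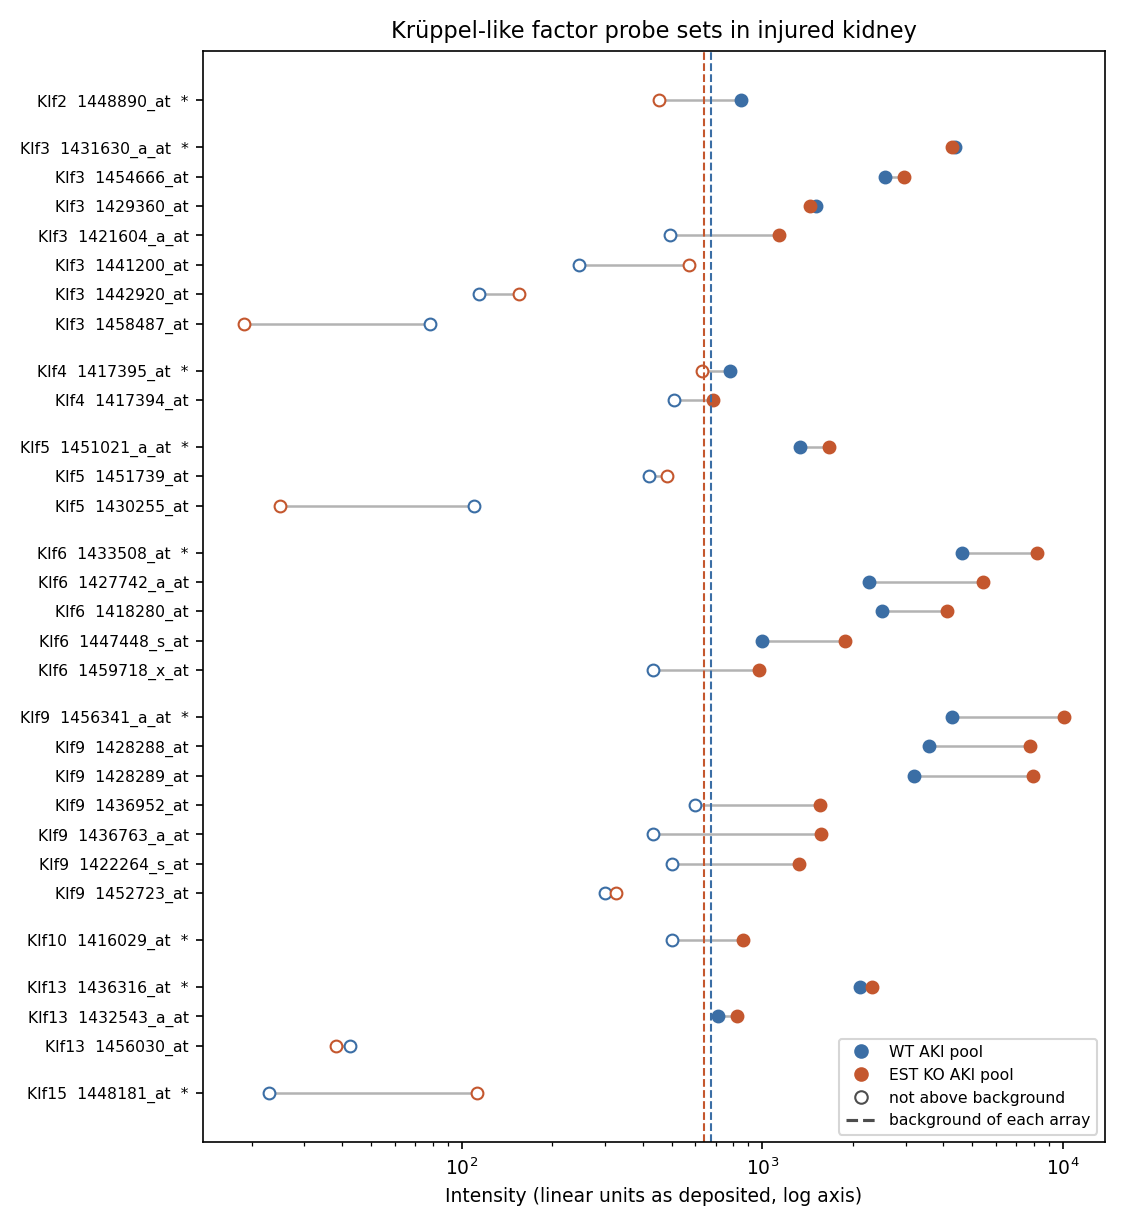
Intensity of all 30 probe sets of the 9 members in the WT AKI pool (blue) and the EST KO AKI pool (orange), on a log axis, with 1 array per pool. Open circles are values not above the array's background (dashed lines, 676.1 and 638.3), and a star marks the brightest probe set of a gene. The lines of Klf6 and Klf9 run to the right at every probe set above background, while the bright probe sets of Klf3 and Klf13 have both pools nearly on top of each other.

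With 1 array per pool, error can be gauged only from how well a gene's own probe sets match. For 1663 genes, at least 2 probe sets exceeded background on both arrays, and the log2 ratios of the 2 brightest differed by a median of 0.21 and by up to 0.81 at percentile 95. Their SD, taken to 1 probe set, was 0.28. This spread covers probes and not mice. The ratios of Klf3 and Klf13 lay within 1 such SD of 0, that of Klf5 between 1 and 2, and those of Klf6 and Klf9 over 3 away. For Klf6 this was by a small margin: its log2 ratio was 0.84, and 0.63 under quantile normalization, which is under 3 SD. Klf2, Klf4 and Klf10 have bounds, which this SD cannot place.

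Among the 30 probe sets, 22 were measured, 13 of them above background in both pools. Of the 22, 18 were higher and 4 lower in the EST KO pool, against 45.6% and 52.2% of all measured probe sets with a single gene symbol. The filter fixes the side of the 9 that passed through 1 pool; of the 13 above background in both, 11 were higher and 2 lower, beside 46.7% higher among all such probe sets. At least 2-fold higher were 6 of the 22, against 3.26% of all measured ones, and 0 were at least 2-fold lower, against 1.43%. Probe sets of a gene read transcripts of that gene in the same RNA, so these are not independent: 5 of the 6 belong to Klf9 and the other to Klf6.

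Klf9 encodes a repressor and activator of GC-rich promoters that glucocorticoids and thyroid hormone induce. Its brightest probe set read 4282.9 (WT) and 10081.6 (EST KO), a log2 ratio of 1.24. The next 2 read 3581.8 and 7784.8 (2.17-fold higher), and 3208.8 and 7948.9 (2.48-fold higher). All 3 probe sets that were above background in both pools were thus over 2-fold apart in the same direction.

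A further 3 probe sets of Klf9 were above background in the EST KO pool alone. They read 598.2 and 1559.2 (a bound of 2.31-fold), 433.5 and 1570.4 (2.32-fold), and 499.7 and 1330.9 (1.97-fold). The last of these carries a suffix (_s_at) for probes that can read several genes. The remaining probe set, at 300.0 and 325.3, lay under background in both pools.

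Over the 6 measured Klf9 probe sets the log2 ratio ran from 0.98 to 1.31, with an SD of 0.12. Among 456 genes with at least 3 probe sets above background in both pools, 5 had all of them at least 2-fold higher in the EST KO pool: Cxcl1, Igfbp4, Klf9, Slc4a4 and Ttr. Of the 7346 measured genes whose pools could be ordered, 138 (1.88%) had a ratio as high as that of Klf9 or higher. Klf9 stayed over 2-fold higher under all 9 alternative treatments of the values, with a lowest log2 ratio of 1.06 under quantile normalization.

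Klf6 encodes an activator induced early after injury, known to drive the cell cycle inhibitor Cdkn1a and genes of TGF-beta signalling. Its brightest probe set read 4607.3 (WT) and 8242.1 (EST KO), a log2 ratio of 0.84. The others above background in both pools read 2262.3 and 5447.1 (2.41-fold higher), 2513.6 and 4109.6 (1.63-fold higher), and 1002.1 and 1889.1 (1.89-fold higher). The fifth, of the kind that can cross-hybridise (_x_at), read 432.4 and 975.4 with a bound of 1.44-fold higher.

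All 5 Klf6 probe sets were therefore higher in the EST KO pool. Over the 4 above background in both pools the SD of the log2 ratio was 0.24, beside 0.10 for the 3 such probe sets of Klf9. A ratio as high as that of Klf6 or higher was held by 334 of the 7346 genes (4.55%). The lowest log2 ratio under any alternative was 0.63, under quantile normalization, so no alternative brought Klf6 to 2-fold.

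Promoter windows of Klf9 and Klf6, the members with the largest ratios, are printed below with those of Klf3, which was level, and Klf2, which was lower, to show the sequence before the start of each. They are the 250 bases before the RefSeq start on the gene's own strand (build GRCm38.p6), and 7 of the 9 members had a window. Klf5 and Klf10 were not matched. Capitals mark matches on either strand to CACCC (or its reverse GGGTG), the GC box GGGCGG (or CCGCCC) and the CCAAT box (or ATTGG).

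Klf9, chr19:23140976-23141225, plus strand: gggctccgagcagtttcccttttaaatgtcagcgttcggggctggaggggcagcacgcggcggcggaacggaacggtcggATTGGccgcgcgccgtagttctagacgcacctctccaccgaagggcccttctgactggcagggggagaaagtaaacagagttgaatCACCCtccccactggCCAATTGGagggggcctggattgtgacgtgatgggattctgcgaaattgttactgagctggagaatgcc

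Klf6, chr13:5861239-5861488, plus strand: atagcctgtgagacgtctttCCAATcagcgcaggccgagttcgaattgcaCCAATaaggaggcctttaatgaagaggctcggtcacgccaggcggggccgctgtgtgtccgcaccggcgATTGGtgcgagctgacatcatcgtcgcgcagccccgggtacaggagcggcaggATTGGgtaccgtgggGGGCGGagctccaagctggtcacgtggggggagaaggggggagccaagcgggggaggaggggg

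Klf3, chr5:64803271-64803520, plus strand: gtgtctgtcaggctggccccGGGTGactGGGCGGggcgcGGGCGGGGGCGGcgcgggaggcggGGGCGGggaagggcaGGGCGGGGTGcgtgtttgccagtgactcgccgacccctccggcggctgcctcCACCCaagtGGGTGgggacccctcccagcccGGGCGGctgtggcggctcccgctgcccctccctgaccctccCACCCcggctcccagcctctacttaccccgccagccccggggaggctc

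Klf2, chr8:72318812-72319061, plus strand: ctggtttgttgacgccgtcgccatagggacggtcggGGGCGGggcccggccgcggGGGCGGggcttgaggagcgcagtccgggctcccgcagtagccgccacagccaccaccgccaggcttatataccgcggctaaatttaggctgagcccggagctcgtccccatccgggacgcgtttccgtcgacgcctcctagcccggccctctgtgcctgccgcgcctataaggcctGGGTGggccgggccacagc

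The window of Klf9 held 1 CACCC match, 0 GC boxes and 3 CCAAT matches, 2 of which overlap each other at one place and read on opposite strands. That of Klf6 held 0 CACCC matches, 1 GC box and 4 CCAAT matches. Klf3 held 5 CACCC matches, 6 GC boxes and 0 CCAAT matches, with 1 base shared by neighbouring matches, and Klf2 held 1, 2 and 0.

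Of the other matched members, Klf4 held 0 CACCC matches, 4 GC boxes and 0 CCAAT boxes, Klf13 held 1, 3 and 2, and Klf15 held 1, 1 and 1. Over 27025 genes with such a window, 51.3% held a CACCC match, 32.9% a GC box and 34.5% a CCAAT box. At least 3 CCAAT matches were held by 2.98% of windows and at least 6 GC boxes by 0.9%. GC content was 59.6% for Klf9 and 64.8% for Klf6, the lowest of the 7, and 71.2% to 78.4% for the other 5, beside a median of 52% over all windows. The CCAAT box was picked for mention after its counts were seen, and a match is a string of letters, not a shown binding site.

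Klf15 and Klf13 are the members nearest to Klf9 in known function or structure. Klf15, a glucocorticoid-induced regulator of amino acid and lipid use, read 22.9 (WT) and 112.5 (EST KO) at its single probe set. These stood at percentiles 15.5 and 39.5 of the silent probe sets, so the values have no order, and they stayed under background with the lower background at percentile 75. Klf13, which shares the Sin3 repressor contact of Klf9, read 2112.9 and 2324.8 at its brightest probe set, and 711.3 and 826.5 at another (1.16-fold higher). The remaining one, at 42.6 and 38.3, was under background. At both measured probe sets the Klf13 pools thus lay within 1.16-fold of each other.

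Klf10, first described as a TGF-beta-inducible early gene, had a single probe set, at 502.6 (WT, under background) and 864.5 (EST KO). Its log2 ratio of 0.35 is therefore a lower bound. With the values taken as deposited, or with background at percentile 75, it was 0.78, a 1.72-fold difference. At the main background, passing through the EST KO pool alone fixes its sign, while with background at percentile 75 both pools were above it.

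Klf5, which supports proliferation of epithelial cells, read 1338.2 and 1674.4 at its brightest probe set, a log2 ratio of 0.32. Its other 2 probe sets lay under background in both pools, so the ratio rests on 1 probe set. It ranged from 0.20 with a pseudocount to 0.38 with the intensity trend removed.

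Klf3, a repressor that recruits the CtBP proteins, had 7 probe sets and no settled direction. Its brightest read 4365.7 (WT) and 4271.8 (EST KO). The others above background in both read 2571.5 and 2966.8 (1.15-fold higher), and 1505.8 and 1439.0 (1.05-fold lower). Those 3 probe sets lay on both sides of 0, by less than the SD between probe sets.

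Another Klf3 probe set stood apart, at 493.8 and 1138.7, at least 1.68-fold higher. Which part of the transcript each probe set reads was not analysed here. With the mean of its measured probe sets Klf3 was at a log2 ratio of 0.22, after centring on the median gene it was at 0.01, and under the other 7 alternatives it was under 0, down to −0.21 under quantile normalization.

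Klf2, a flow-induced factor of endothelium that is also expressed in resting T cells and macrophages, read 852.7 (WT) and 452.2 (EST KO) at its single probe set. The EST KO value was under background, so the log2 ratio of −0.42 is a bound. With the values as deposited, or background at percentile 75, it was −0.92, a 1.89-fold difference. At the main background, passing through the WT pool alone fixes the sign. The EST KO value stood at percentile 83.7 of the silent probe sets. With background at percentile 75 both pools were therefore above it, and Klf2 was lower there too.

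Klf4, which endothelium shares with differentiating epithelium, had 2 probe sets that disagreed. The brighter read 781.7 and 628.8, and the other 509.9 and 686.0, the latter at least 1.01-fold higher. Each was above background in 1 pool alone, on opposite sides, and no direction is given for Klf4 as a gene.

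**Figure D2:**
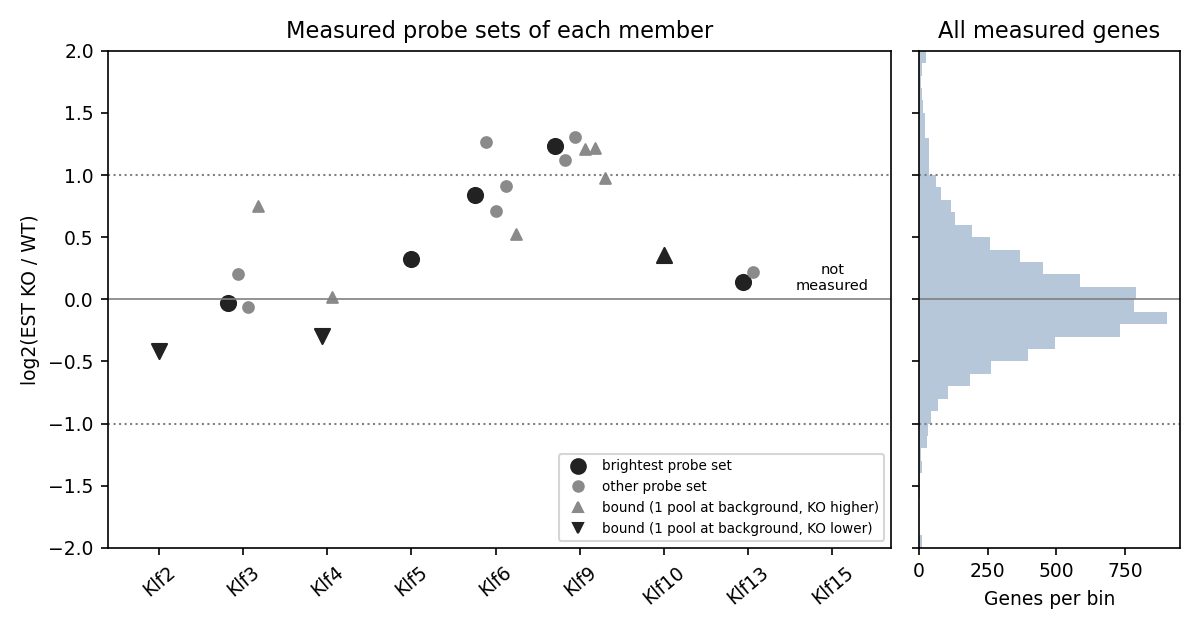
Left, log2 ratio (EST KO over WT) of the 22 measured probe sets by member; large black symbols are the brightest probe set, small grey ones the others, and triangles are bounds with 1 pool held at background. Right, the same ratio over all measured genes in bins of 0.1, with values past the axis gathered in the outermost bins; dotted lines mark 2-fold. All probe sets of Klf6 and Klf9 lie above 0, those of Klf3 and Klf4 lie on both sides, and Klf15 has none.

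The rest of the family was largely dim. Of 7 other KLF genes read, Klf7 and Klf11 were measured and Klf1, Klf12, Klf14, Klf16 and Klf17 lay under background in both pools. Klf7 was lower in the EST KO pool at its 3 measured probe sets: 1143.5 and 890.0 (1.28-fold), 912.6 and 566.7 (at least 1.43-fold), and 873.5 and 608.0 (at least 1.37-fold). Klf11, the closest relative of Klf10, read 848.8 and 838.0. Among 7 Sp genes, which carry the same type of zinc fingers, 2 were measured: Sp1 was 1.46-fold higher (911.8 and 1330.8), and Sp7 read 777.2 and 583.2, the latter under background. None of these 4 measured KLF and Sp genes was 2-fold apart.

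Genes that act with KLFs were lower more often than higher, as were all measured genes (54.6% lower). Of 14 cofactors and ubiquitin ligases, 11 were measured, 2 higher and 9 lower, and none was 2-fold apart. Their median log2 ratio was −0.24 beside −0.06 over all measured genes. Of the 9, Ctbp2, Hdac3 and Ep300 were close to level, each 1.04-fold lower, and are named after their values were seen. Hdac1, a histone deacetylase of the Sin3 complex, was 1.45-fold lower (1495.0 and 1033.4), and Ctbp1, the corepressor that KLF3 binds, 1.37-fold lower (4924.8 and 3588.8). Wwp1, a ubiquitin ligase that marks KLF5 and KLF2 for degradation, read 2006.0 and 2861.7 (1.43-fold higher), with its 3 measured probe sets in the same direction.

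Signals that are known to induce these genes were read from lists of the glucocorticoid, clock, TGF-beta and early response pathways. Glucocorticoid-induced genes did not move as one: of 12 measured, 7 were higher and 5 lower, beside 43.6% and 54.6% of all measured genes. Their median of 0.07 turned to −0.03 under quantile normalization. Sgk1, a kinase that raises sodium transport, was 2.21-fold higher (4416.3 and 9759.1), Errfi1, a feedback inhibitor of the EGF receptor, 2.15-fold higher (9231.8 and 19863.3), and Pdk4, which restrains glucose oxidation, 2.06-fold higher (8302.3 and 17128.1). Under quantile normalization the log2 ratios of these 3 went from 1.14 to 0.97, 1.11 to 0.99 and 1.04 to 0.89, under 2-fold. Klf9 started higher and went from 1.24 to 1.06, so it does not stand out as steadier. A second Errfi1 probe set was 2.75-fold higher (3633.6 and 10000.1). Fkbp5 (1.08-fold higher) and Tsc22d3 (1.07-fold higher), also strongly induced by glucocorticoids, were close to level, named after their values were seen. The glucocorticoid receptor gene Nr3c1 was 1.45-fold higher (880.5 and 1278.8).

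Of 10 measured clock genes, 8 were higher and 2 lower (median 0.24), against 43.6% higher over all measured genes. None of the 10 was 2-fold apart. Dbp, a rhythmic output factor, was 1.81-fold higher (753.5 and 1366.6), Nr1d1, which encodes the repressor REV-ERB alpha, at least 1.66-fold (477.1 and 1123.5), and Hlf at least 1.41-fold (585.0 and 950.8). The hour at which tissue was taken is not in the labels, so a difference in hour between the pools was not tested. With a pseudocount the log2 ratio of Dbp was 0.49, against 0.86.

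Among 12 measured immediate early genes, the class that Klf6 and Klf10 share in their timing, 9 were higher and 3 lower (median 0.21). Over all measured genes 43.6% were higher. Atf3, a stress-induced factor, was at least 3.15-fold higher (260.2 and 2132.9). Egr1 and Fos were 1.30-fold and 1.26-fold higher, beside 1.79-fold for Klf6 and at least 1.28-fold for Klf10. The TGF-beta list had 4 of 10 measured genes higher and 6 lower, with a median of −0.25: Ccn2, a matrix-associated target, was 2.18-fold lower (8950.7 and 4100.8), Tgfbr1, the type I receptor, 1.52-fold lower (6816.3 and 4491.1), and the corepressor gene Tgif1 1.40-fold higher (1969.4 and 2766.2). This share of lower genes is close to the 54.6% over all measured genes.

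Of the MEK5-ERK5-MEF2 genes, the route by which flow induces Klf2 and Klf4, 3 were measured: Mef2a (1.15-fold higher), Mef2d (1.03-fold lower) and Map2k5 (1.02-fold lower). Endothelial genes that KLF2 or KLF4 are known to raise or restrain were lower in 4 of 5 measured cases, with a median of −0.56. Over all measured genes 54.6% were lower. The list mixes raised and restrained genes, so its count and median have no single expected direction. Thbd, the anticoagulant receptor thrombomodulin, was 2.43-fold lower (3094.0 and 1273.5), Nos3, the endothelial nitric oxide synthase, at least 1.93-fold lower (1235.0 and 589.2), and S1pr1, a lipid receptor that guards barrier function, 1.48-fold lower (982.5 and 665.0). With a pseudocount the log2 ratio of Thbd was −0.98, just under 2-fold. Ace, the angiotensin-converting enzyme gene, was 1.28-fold lower, and F3, the tissue factor gene, was 1.25-fold higher. Both were named after their values were seen. Of the other list genes read, Edn1, Nppc, Sele and Vcam1 lay under background in both pools.

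Endothelial and myeloid markers were also lower in the EST KO pool, where 54.6% of all measured genes were lower. All 10 measured endothelial markers of 12 were lower with EST KO (Tek and Tie1 were under background), with log2 ratios from −0.75 to −0.07 and a median of −0.29, and their summed level was 14461 for WT and 11162 for EST KO. Myeloid markers, from cells that also express Klf2 and Klf4, were lower in 7 of 7 measured of 11 read (Adgre1, Itgam, Fcer1g and Csf3r were under background), with a median of −0.51 and sums of 14605 and 8672. Their part in the values of Klf2 and Klf4 was not tested, and fewer cells of a type cannot be told apart from less RNA per cell in pooled tissue. Among lymphocyte markers only Ms4a1 was measured, and Cd3e, Cd3g and Cd2 of T cells lay under background in both pools.

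Metabolic genes linked to KLF15 and KLF6 were read next. Over all measured genes 43.6% were higher and 3.02% at least 2-fold higher. Of 9 measured genes of the KLF15 list 8 were higher (median 0.30) and Cpt1a was level (1.03-fold lower), and 3 were at least 2-fold higher: Pck1 (6.27-fold), Prodh, the proline dehydrogenase (3.15-fold, 1360.6 and 4280.4), and Bckdha, a subunit of the branched-chain keto acid dehydrogenase (2.17-fold, 1538.2 and 3335.3). With a pseudocount the log2 ratio of Pck1 was 1.87 against 2.65, that of Prodh 1.27 against 1.65 and that of Bckdha 0.84 against 1.12, under 2-fold. Klf15 itself could not be read beside them.

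All 14 measured genes of branched-chain amino acid breakdown, of 18 read, were higher, with log2 ratios from 0.17 to 1.55 and a median of 0.52, and 2 were at least 2-fold apart. Proximal tubule markers, from the segment where much of this breakdown takes place, were higher in the same pool by a median of 1.13 (12 of 12), and their part in this list and in the KLF15 list was not tested. Besides Bckdha, Aldh6a1 (2.92-fold, 2449.7 and 7160.4) and Mccc1 (1.89-fold, 2498.2 and 4709.3) led them. KLF6 has been linked to repression of this pathway in injured tubules. Here Klf6 and the pathway were both higher in the same pool, and any effect of KLF6 on the pathway was not tested. Of the cytochrome oxidase assembly list, 3 genes were measured and were close to level (Cox10, Cox17 and Surf1, 1.01-fold to 1.06-fold higher), while Sco2, a reported KLF6 target, was under background in both pools.

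Of 4 measured cell cycle genes tied to KLF4, KLF5 and KLF6, 3 were higher and 1 level, with a median of 0.44. Over all measured genes 43.6% were higher. Ccnd1, which encodes cyclin D1, was 1.91-fold higher (2237.3 and 4279.3), and another of its 3 measured probe sets was at 2.48 on the log2 scale. The third, at 47.8 and 773.5, was under background in the WT pool, and its log2 ratio of 0.19 is a bound. Cdkn1a, which encodes the inhibitor p21, was 1.55-fold higher (3825.6 and 5948.1), and Cdkn1b 1.19-fold higher (711.2 and 845.8). The fourth, Pdgfa, was level (1405.7 and 1416.5).

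Proximal tubule markers were higher in the same pool as Klf9 and Klf6. All 12 proximal tubule markers were higher in the EST KO pool, 6 at least 2-fold, beside 43.6% and 3.02% of all measured genes. Their log2 ratios ran from 0.18 to 2.95, with a median of 1.13 and summed levels of 50714 and 110840. The lowest ratio, of Slc5a12 (77.3 and 766.7), is a bound, since the WT value was under background. The markers were led by Pdzk1, Slc13a3 and Slc22a6 (7.71-fold, 6.64-fold and 6.11-fold higher). With a pseudocount the log2 ratio was 2.35 against 2.95 for Pdzk1 and 1.96 against 2.73 for Slc13a3, and that of Slc22a6 was 1.74 against 2.61 with the mean of its probe sets. The log2 ratio of Klf9, 1.24, lay inside the range of these markers and near their median, and that of Klf6, 0.84, under it. Tubular injury markers went the other way in 7 of 10 measured cases (median −0.52, sums 107483 and 65116), beside 54.6% lower over all measured genes. They were led by Krt20, Lcn2 and Krt18 (2.65-fold, 2.08-fold and 2.04-fold lower). With a pseudocount Krt18 was at −0.75 on the log2 scale. The part of proximal tubule RNA or of the degree of injury in the values of Klf9 and Klf6 was not tested.

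Distal nephron and collecting duct markers, of the segments where Klf5 is known, were higher in 6 and lower in 3 of 10 measured cases, with 1 without an order and a median of 0.09 beside 0.32 for Klf5. For this and the next lists, the shares over all measured genes are 43.6% higher and 54.6% lower. Fibroblast and pericyte markers were lower in 6 of 7 measured cases (median −0.50), and podocytes, where Klf6 and Klf15 are known, had Podxl alone measured, 1.34-fold lower. Of 11 hepatocyte markers read, 7 lay under background in both pools, Alb, Apoa1, Apoa2 and Ahsg among them, and 4 were measured. Of these, Ttr was 6.97-fold higher (1716.4 and 11956.7), Cyp2e1 1.79-fold higher (11569.4 and 20654.9) and Cps1 1.11-fold higher, and Apob was lower by at least 1.22-fold.

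**Figure D3:**
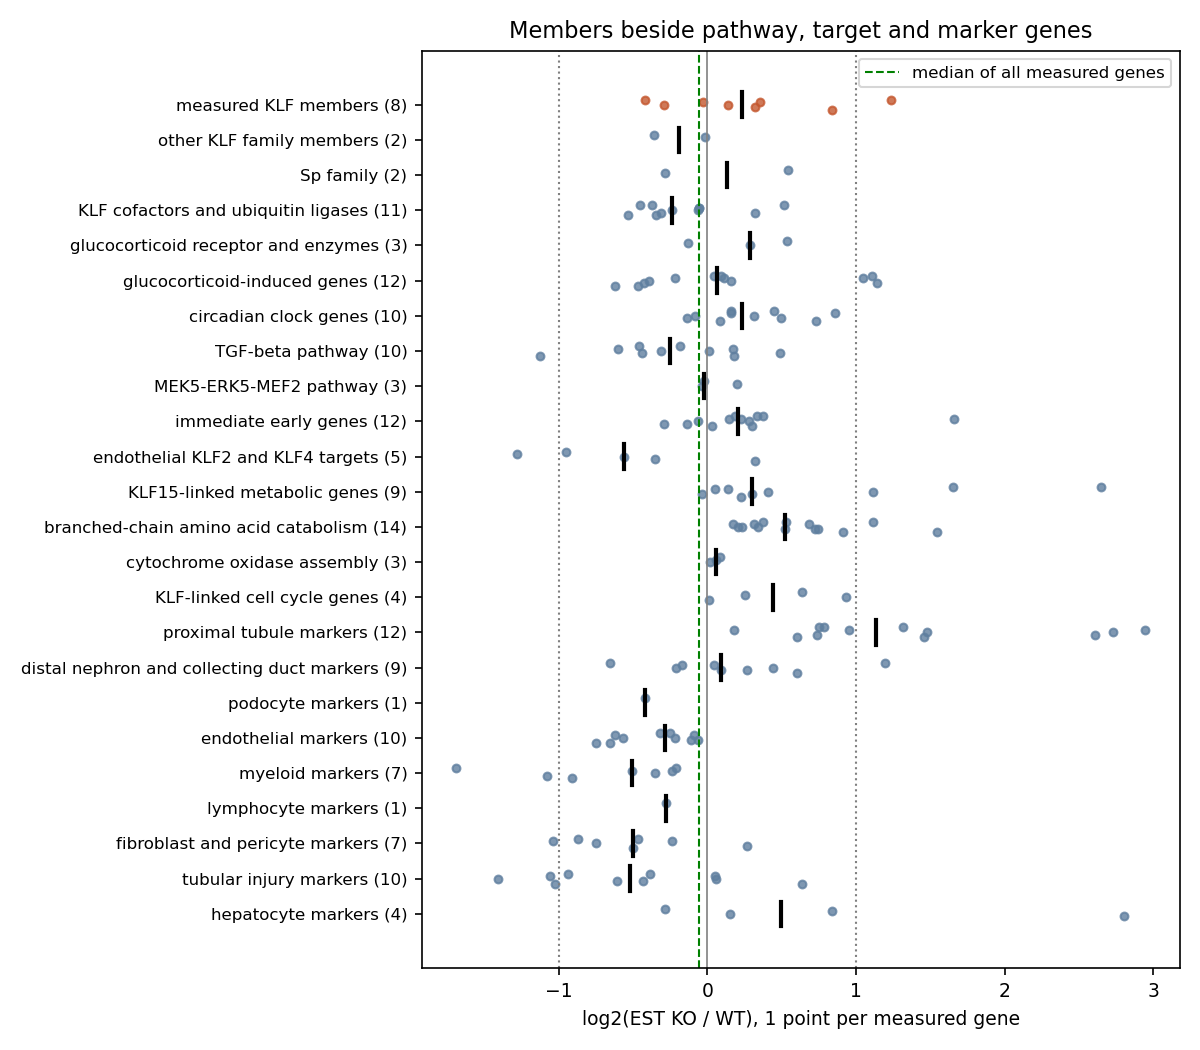
log2 ratio (EST KO over WT) of the 8 measured members (top, orange) and of each pathway, target and marker list (blue), 1 point per measured gene with an order and the number in brackets; black bars are medians, dotted lines mark 2-fold and the green dashed line is the median of all measured genes (−0.06). Klf9 and Klf6 sit on the side of the proximal tubule and branched-chain lists.

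**Figure D4:**
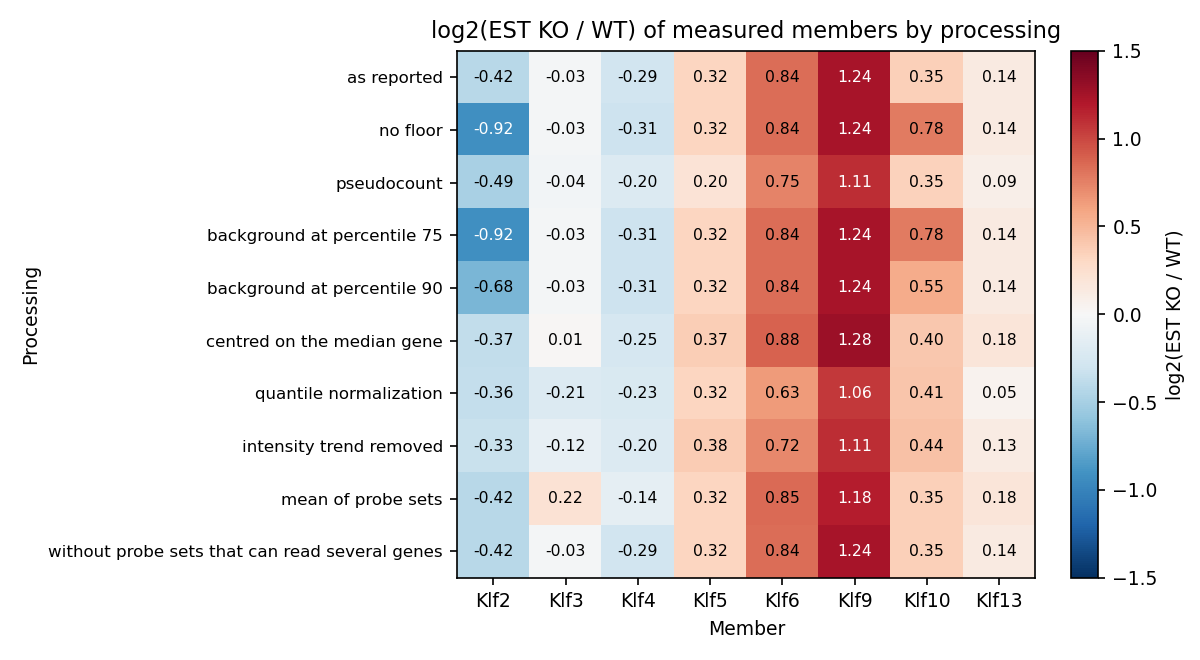
log2 ratio (EST KO over WT) of each measured member as reported (top row) and under the 9 alternative treatments of the values. Klf9 stays above 1 in every row and Klf6 between 0.63 and 0.88, Klf2 and Klf10 change most with the handling of dim values, and Klf3 changes side.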

How the data were processed

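The deposited table holds a linear intensity for each of 45101 probe sets of an Affymetrix mouse array, 1 column per pool; per the labels' protocols, biotinylated cRNA was made from 8 ug of Trizol-extracted total RNA. Neither scanner software nor summary method is named in the labels. From the values, both arrays had been scaled to a mean of 500 without the lowest and highest 2%, with medians of 261.8 (WT) and 242.4 (EST KO); values were not centred or quantile normalized. With 1 array per group, the number of arrays limits precision.

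Names came from the platform annotation in GEO (34958 with 1 symbol, 932 with several, 9211 with none), with symbols updated by Entrez ID to RefSeq GRCm38.p6 (34754 matched). Each gene was read from its brightest probe set, with the background and floor given above, using Python 3.11.15 and pandas 2.3.3. Calls were folds of at least 2, not tests; the functions were tested on simulated data. The members and lists were chosen with earlier results of these data known. Named list genes are up to 3 measured genes with the largest absolute log2 ratio; others are marked. Genes alike in pattern were not sought, since 2 arrays give a single ratio. Alternatives covered the floor, background, scaling and choice of probe set.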

Additional observations from a re-analysis of the deposited data

How the results depend on the processing

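The members' calls held under all 9 alternatives: 1 of 8 measured members was at least 2-fold higher (Klf9) and 0 at least 2-fold lower, and the members' median log2 ratio ran from 0.14 with a pseudocount to 0.28 after centring. It was 0.14 without Klf6 or without Klf9, alternatives added after seeing the data. Of 72 member ratios under alternatives, 68 moved by less than the SD between probe sets, 0.28; the 4 others are Klf2 and Klf10 with no floor or with background at percentile 75, given above. Counts over all measured genes moved more: genes at least 2-fold higher numbered 226 and, with a pseudocount, 124, and those at least 2-fold lower numbered 105, against 43 with a pseudocount, 197 with no floor and 204 with background at percentile 75. No scaling moved the median of all genes by over 0.1. List medians that changed sign under an alternative were those of the Sp genes (−0.14 with background at percentile 75), the glucocorticoid-induced genes (−0.03) and the MEK5-ERK5-MEF2 genes (0.03 with the trend removed). Klf2, Klf4, Klf10 and Klf15 are limited by signal over background, and 1 array per pool leaves the spread between mice unknown.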
